A study of Mus musculus with 4 samples.

Results

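Wnt ligands, receptors and target genes were followed in stem cells of mouse skin squamous cell carcinoma with and without transforming growth factor beta (TGF-β) signalling. The set held 10 of the 31729 genes named in the files, taken by name, with earlier results of these data known. It comprised the ligand genes Wnt3, Wnt4, Wnt7b, Wnt10a and Wnt10b, the target genes Axin2 and Lef1, the receptor genes Fzd6 and Lrp6, and Ctnnb1, which encodes β-catenin. Of the 10 genes, 9 were among the 11973 that reached at least 1 FPKM (fragments scaled to transcript length and sequencing depth) in at least 2 libraries and were tested, and Lef1 was not.

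Messenger RNA was sequenced from primary skin carcinomas that arose in the epidermis. In both groups the cells carried TetO-Hras, an Hras transgene under a tetracycline-responsive promoter, together with LV-rtTA3-TGF-beta reporter, a construct whose name joins the rtTA3 transactivator to the reporter. Both groups had the strain label C57BL/6 X FBV. Lineage-negative cells were chosen by integrin α6 and CD44 on their surface and then parted by the fluorescence of the reporter. Reporter positive cells (mCherry Pos, labelled as having TGF-β signalling) and reporter negative cells (mCherry Neg, labelled as lacking it) gave 1 library each in experiment 1 and in experiment 2, so n = 2 per group. The labels give neither the age or number of the animals nor any pooling, so the p-values describe the spread between libraries, which may be technical. The comparison asked how carcinoma stem cells that respond to TGF-β differ from those that do not.

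Wnt proteins are secreted, lipid-bearing ligands that bind Frizzled receptors, and in the canonical branch also the coreceptors Lrp5 and Lrp6. Binding halts the complex of axin, Apc and Gsk3 that otherwise marks β-catenin for destruction, and β-catenin then enters the nucleus and acts with Tcf and Lef factors on target genes. In skin, Wnt signalling takes part in hair follicle formation and in the upkeep of epidermal and follicle stem cells.

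Wnt3, Wnt10a and Axin2 were lower in reporter positive than in reporter negative cells, and no gene of the set was higher. Over all genes tested 5.39% passed limma's test in either direction. These 3 of the 9 tested genes passed limma's test at an adjusted p of 0.05, where 2.71% of all genes tested passed as lower in reporter positive cells and 2.68% as higher. Library values of the groups did not overlap, and were lower in reporter positive cells, for 6 of the 9, against 42.7% of all genes tested. In both experiments 8 of the 9 were lower in reporter positive cells, against 54.3% of all genes tested. The counts of 6 and 8 are descriptions and add nothing to the test. By an unadjusted p under 0.05 in limma, 6 of the 9 passed, all lower, against 25.9% of all genes tested in either direction. The 321 higher and 324 lower calls over all genes became 474 and 210 under median-of-ratios scaling, and 422 and 256 under quantile normalization. All changes below are given with ± SE on the log2(FPKM + 1) scale, positive minus negative, where the added 1 makes changes of weakly expressed genes look smaller. On that scale the median change of all genes tested was −0.18 as deposited and 0.03 after median-of-ratios scaling, and the median of the 9 genes was −0.77 and −0.62 under those scalings. The change was below 0 in 9 of 9 genes as deposited, in 7 under median-of-ratios scaling and in 8 under quantile normalization. In sorted bulk samples, fewer cells of a type and less RNA per cell cannot be told apart.

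**Figure D1:**
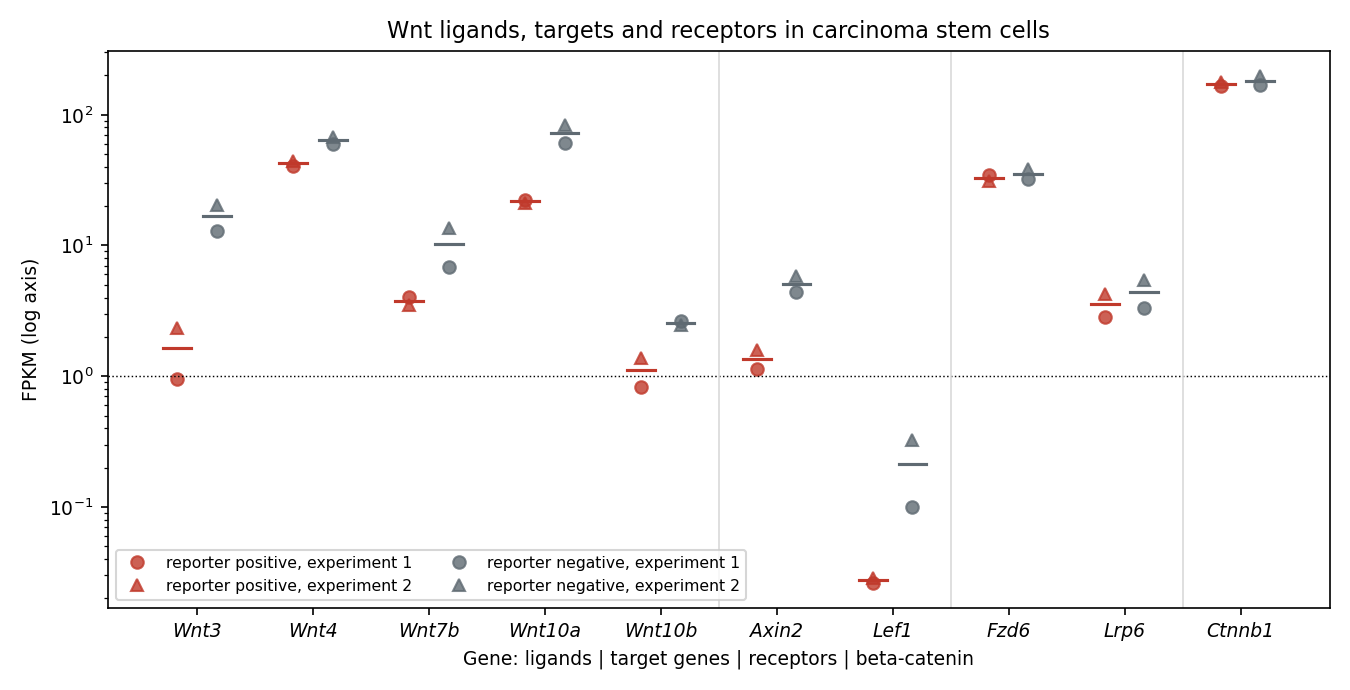
FPKM of the 10 genes on a log axis in each library, reporter positive (red) left of reporter negative (grey), with circles for experiment 1, triangles for experiment 2 and a bar at the group mean; the dotted line marks 1 FPKM. Wnt3, Wnt10a and Axin2 sit apart between the groups, while Fzd6, Lrp6 and Ctnnb1 overlap.

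Among the ligands, Wnt3 showed the widest gap of the set. Wnt3 encodes a ligand of the β-catenin branch and lies on mouse chromosome 11 from 103635464 to 103679271, plus strand, in the mm9 build used by the files. Its level was 0.948 and 2.33 FPKM in the reporter positive libraries of experiments 1 and 2, against 12.9 and 20.5 FPKM in the reporter negative ones. Both reporter positive values lay far under both reporter negative values. The mean was 1.64 ± 0.975 FPKM in reporter positive cells and 16.7 ± 5.34 FPKM in reporter negative cells (SD, n = 2 each), which is 10.2-fold lower in reporter positive cells. The change was −2.76 ± 0.36 with a limma adjusted p of 0.0302, and the experiments alone gave −2.84 and −2.69. In rank, Wnt3 stood at percentile 10.5 of the tested genes in reporter positive cells and at percentile 59.1 in reporter negative cells. All of its signal lay on 1 annotated transcript, ENSMUST00000000127, of 5 exons and 3076 bases, so its sum took in no assembled form. That transcript was covered by reads along its whole length in every library except reporter positive experiment 1. The interval given by the authors' software, which covers counting error only, reached 20.7% of the value on either side in that library and 5.47% in reporter negative experiment 2. Leaving out any 1 of the 4 libraries kept the direction and ended the call, with limma adjusted p from 0.0761 to 0.120. The Wnt3 call also ended without a filter on low values (limma adjusted p 0.1003) and from annotated transcripts alone (0.0883), at the same change.

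Wnt10a, whose ligand is known for its role in teeth, hair and other skin appendages, lies on chromosome 1 from 74838090 to 74850753, plus strand (mm9). Wnt10a reached 22.3 and 21.2 FPKM in reporter positive libraries, against 61.1 and 83.7 FPKM in reporter negative libraries. The reporter positive libraries were close to each other and well under the reporter negative ones, with means of 21.8 ± 0.766 and 72.4 ± 16.0 FPKM (SD, n = 2 each), 3.33-fold lower in reporter positive cells. Its change was −1.67 ± 0.19, with a limma adjusted p of 0.0231, and the experiments alone gave −1.41 and −1.93.

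The size of the Wnt10a difference depended on which transcripts were summed. The annotated transcript ENSMUST00000006718 alone held 22.3 and 21.2 FPKM in reporter positive libraries, against 47.3 and 35.5 FPKM in reporter negative libraries. It carried all of the signal in reporter positive cells. In reporter negative experiment 1 a further 13.8 FPKM lay on a single-exon form of 1491 bases at the 3′ end with no strand. In reporter negative experiment 2 a further 48.2 FPKM lay on an assembled form of 1672 bases and 4 exons that began 959 bases downstream of the annotated start. From annotated transcripts alone the change was −0.88 and the limma adjusted p 0.155. Placing assembled forms of no strand was decided after values had been seen, and without them the change was −1.49 and the limma adjusted p 0.0599, so the call was lost. With values scaled to depth but not divided by transcript length, the change was −1.48 with a limma adjusted p of 0.0212. The call was also lost, with the direction kept, without either reporter positive library or without reporter negative experiment 2 (limma adjusted p 0.0826 to 0.129), and without a filter on low values (0.0837).

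**Figure D2:**
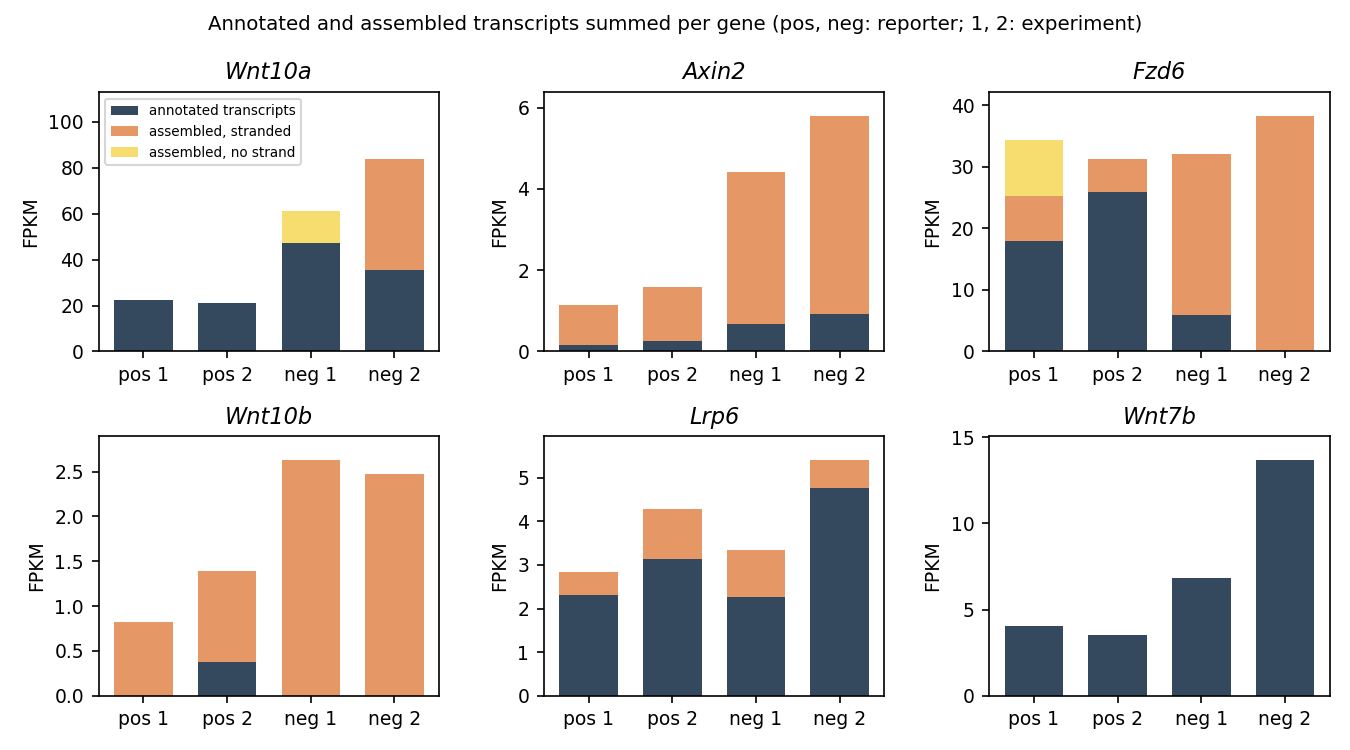
FPKM per library of 6 genes, split into annotated transcripts (dark), assembled stranded transcripts (orange) and assembled transcripts of no strand (yellow), with reporter positive libraries (pos) left of reporter negative ones (neg) and the experiment number below. The Wnt10a bars of the reporter negative libraries hold 22.6% and 57.6% assembled signal and those of the reporter positive libraries none.

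The other ligands did not pass the test. Wnt4, known in kidney and reproductive tract development and also made in skin, reached 40.7 and 44.6 FPKM in reporter positive libraries, against 60.1 and 67.9 FPKM in reporter negative libraries. The libraries of the groups did not overlap, and the differences in the 2 experiments were close to each other at −0.55 and −0.60. Its change was −0.57 ± 0.14, with a limma adjusted p of 0.0914. With the experiment as a block, which compares the fractions within each experiment, the limma adjusted p of Wnt4 was 0.0455 and 4 of the 9 genes passed, where 11.9% of all genes tested passed and 7.44% passed as lower.

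Wnt7b, a ligand produced by epithelia such as that of the lung and skin, reached 4.06 and 3.50 FPKM in reporter positive libraries, against 6.81 and 13.7 FPKM in reporter negative libraries. The reporter negative libraries differed from each other more than the reporter positive ones did. Its change was −1.16 ± 0.34, with a limma adjusted p of 0.122. A second annotated form, ENSMUST00000165521, was listed at 2.67 and 2.26 FPKM in reporter negative libraries and at 0 in both reporter positive ones. The main form ENSMUST00000023015 was at 4.06 and 3.50 FPKM in reporter positive libraries, against 4.14 and 11.4 FPKM in reporter negative libraries. The second form is 3367 bases long and the main form 3371, and they share their outer ends, so the division of reads between them is uncertain. The main form alone differed between the groups chiefly through reporter negative experiment 2.

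Wnt10b, which lies beside Wnt1 in mammalian genomes and is known in bone and fat cell biology, was the lowest ligand of the 5. It reached 0.823 and 1.39 FPKM in reporter positive libraries, against 2.63 and 2.47 FPKM in reporter negative libraries. The groups did not overlap, the change was −0.77 ± 0.23 and the limma adjusted p was 0.123. Assembled forms carried all of its signal in 3 libraries and 73.2% in reporter positive experiment 2, so annotated transcripts alone gave no test for it. The larger of these forms had a longer 3′ end than the annotated gene.

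**Figure D3:**
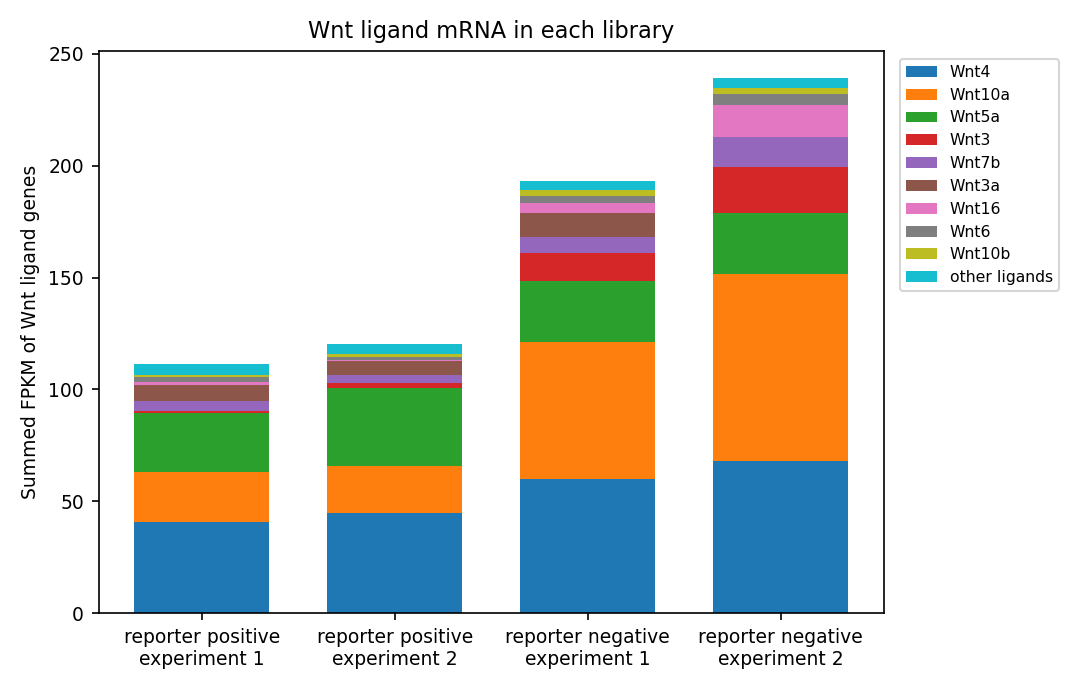
Summed FPKM of the 19 Wnt ligand genes in each library, stacked by gene, reporter positive libraries left of reporter negative ones. Wnt10a and Wnt3 take a smaller part of the reporter positive bars, and the Wnt5a segment is 26.6 and 35.0 FPKM in reporter positive libraries against 27.1 and 27.2 FPKM in reporter negative libraries.

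Summed over all 19 Wnt ligand genes, the files held 111 and 120 FPKM in reporter positive libraries, against 193 and 239 FPKM in reporter negative libraries. FPKM is per length, so levels can be set side by side between genes. The 5 ligand genes of the set held 61.9% and 60.8% of that sum in reporter positive libraries, against 74.3% and 78.6% in reporter negative libraries. Wnt10a held 20.1% and 17.7% of the ligand sum in reporter positive libraries, against 31.6% and 35.0% in reporter negative libraries, where its assembled forms were counted. Wnt3 held 0.852% and 1.94% in reporter positive libraries, against 6.68% and 8.55% in reporter negative libraries. Wnt4 was the most abundant ligand in reporter positive libraries, with 36.6% and 37.1% of the sum, against 31.1% and 28.4% in reporter negative libraries. Wnt5a, a ligand known mainly for signalling without β-catenin, held 23.9% and 29.1% in reporter positive libraries, against 14.0% and 11.3% in reporter negative libraries. These shares are descriptions and were not tested.

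Of the target genes, Axin2 was lower in reporter positive cells. Axin2 encodes a scaffold of the β-catenin destruction complex that is itself switched on by Wnt signalling, and it serves widely as a readout of the canonical branch. It lies on chromosome 11 from 108781663 to 108812097, plus strand (mm9), and reached 1.14 and 1.59 FPKM in reporter positive libraries, against 4.41 and 5.80 FPKM in reporter negative libraries. Both reporter positive values lay under both reporter negative ones, and the experiments differed by −1.34 and −1.39. The mean was 1.36 ± 0.324 FPKM in reporter positive cells and 5.11 ± 0.982 FPKM in reporter negative cells (SD, n = 2 each), 3.74-fold lower in reporter positive cells. The change was −1.37 ± 0.23, with a limma adjusted p of 0.0465. Between 83.4% and 85.5% of the Axin2 signal in every library lay on assembled forms, so the split between annotated and assembled transcripts was alike in all 4 libraries. One assembled form of 11 exons, from 108782650 to the annotated end, held 85.5% and 83.4% of the signal in reporter positive libraries, against 65.0% and 45.8% in reporter negative libraries. A longer form that starts at 108782114 held a further 38.2% in reporter negative experiment 2. Axin2 was above 1 FPKM in every library, and its call was lost under several alternatives. With a pseudocount of 0.1 the limma adjusted p was 0.0557. Without a filter on low values it was 0.129, where the calls over all genes fell from 645 to 4. The call was also lost without any 1 library, with changes from −1.53 to −1.20. From the most abundant transcript of each library the change of Axin2 was −0.81 with a limma adjusted p of 0.134. The direction was the same in each of these.

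Lef1, a nuclear partner of β-catenin and a target of the pathway, was barely present. It was listed at 0.0264 and 0.0285 FPKM in reporter positive libraries, against 0.0998 and 0.324 FPKM in reporter negative libraries. The intervals from the authors' software reached 0 in both reporter positive libraries and met that of reporter negative experiment 1. The value in reporter negative experiment 2, summed over 2 forms, lay above the upper ends of both reporter positive intervals (0.0793 and 0.0855 FPKM). Lef1 fell under the filter of 1 FPKM, so no test or fold is given. Tcf7, another nuclear partner and target from the same family, was at 3.21 and 2.94 FPKM in reporter positive libraries, against 5.62 and 5.88 FPKM in reporter negative libraries, with a limma adjusted p of 0.0918.

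Promoter sequences of the 2 lower genes that had an entry are shown because Wnt3 and Axin2 moved together; 6 of the 10 genes matched a RefSeq promoter window. Each run is the 250 bases before the RefSeq start on GRCm38.p6, plus strand, 5′ to 3′. These coordinates belong to that build and not to mm9. Capitals mark CTTTG or its reverse complement CAAAG, the core bound by Tcf and Lef factors, and GTCT or its reverse complement AGAC, the short element bound by Smad proteins, the transcription factors of TGF-β signalling.
Wnt3 (chr11:103773925-103774174): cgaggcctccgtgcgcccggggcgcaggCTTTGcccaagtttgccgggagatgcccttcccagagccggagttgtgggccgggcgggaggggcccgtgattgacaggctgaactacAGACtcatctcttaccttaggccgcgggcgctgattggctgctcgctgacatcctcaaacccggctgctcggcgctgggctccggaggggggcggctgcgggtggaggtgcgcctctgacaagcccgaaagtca
Axin2 (chr11:108920099-108920348): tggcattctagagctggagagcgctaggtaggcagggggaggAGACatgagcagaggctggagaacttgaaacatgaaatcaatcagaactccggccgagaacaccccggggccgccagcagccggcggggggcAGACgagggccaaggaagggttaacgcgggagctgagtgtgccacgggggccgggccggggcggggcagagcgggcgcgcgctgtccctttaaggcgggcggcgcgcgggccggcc
The Wnt3 window held CTTTG 222 bases before the start and AGAC 134 bases before it. The Axin2 window held AGAC 116 and 208 bases before the start and neither CTTTG nor CAAAG. Among genes of the set with an entry that is not shown, every Ctnnb1 and Wnt10b window held GTCT or AGAC and neither CTTTG nor CAAAG. Every Lef1 window held both motifs, and that of Wnt4 held neither. Over 32851 promoter windows of this length, 48.6% held CTTTG or CAAAG and 82.9% held GTCT or AGAC. A match describes letters in the window and nothing of binding, and the 2 motifs share no bases in the windows shown.

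The receptor genes and β-catenin did not pass the test. Fzd6, a Frizzled receptor known in hair patterning and planar cell polarity, reached 34.4 and 31.2 FPKM in reporter positive libraries, against 32.1 and 38.3 FPKM in reporter negative libraries. The libraries overlapped, and the differences within experiments were 0.09 in experiment 1 and −0.29 in experiment 2. The change of Fzd6 was −0.10 ± 0.16, with a 95% interval from −0.50 to 0.31 and a limma adjusted p of 0.741. Its annotated transcript held 52.5% and 82.9% of the signal in reporter positive libraries, against 18.5% and none in reporter negative libraries, and assembled forms held the rest. In reporter positive experiment 1 these included a single-exon form of 1938 bases and no strand at the 3′ end, with 26.6% of the signal, and a form of 2367 bases that ended short of the annotated end, with 20.9%. From annotated transcripts alone, which are listed at 0 in reporter negative experiment 2, the change of Fzd6 was 3.10, the opposite direction, with a limma adjusted p of 0.246. It was also above 0, at 0.14, under median-of-ratios scaling.

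Lrp6, the coreceptor of the canonical branch, reached 2.83 and 4.27 FPKM in reporter positive libraries, against 3.35 and 5.41 FPKM in reporter negative libraries. Both groups had their higher value in experiment 2, and their ranges overlapped. The change of Lrp6 was −0.23 ± 0.29, with a 95% interval from −0.99 to 0.53 and a limma adjusted p of 0.663. Ctnnb1, which encodes β-catenin, the transducer of the canonical branch and a part of adherens junctions, was the most abundant gene of the set. It reached 167 and 179 FPKM in reporter positive libraries, against 168 and 198 FPKM in reporter negative libraries, all on 1 transcript. The change of Ctnnb1 was −0.07 ± 0.15, with a 95% interval from −0.47 to 0.32 and a limma adjusted p of 0.803, and it was 0.17 under median-of-ratios scaling. Each of the 3 intervals includes 0, and a p that misses the threshold does not show equal levels.

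**Figure D4:**
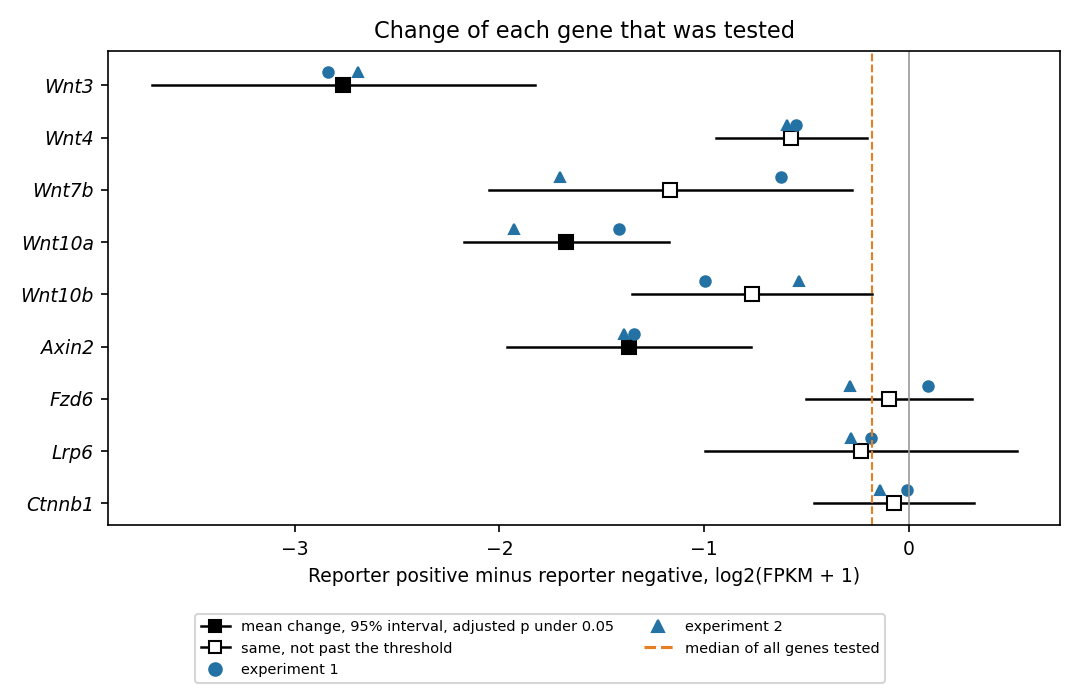
Change of the 9 tested genes, reporter positive minus reporter negative on the log2(FPKM + 1) scale: squares with 95% intervals, filled where the limma adjusted p was under 0.05, and blue marks for each experiment. The filled squares are Wnt3, Wnt10a and Axin2, the dashed line is the median of all genes tested (−0.18), and the marks of Fzd6 fall on either side of 0.

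The order of levels differed between the fractions. In reporter positive cells the order by mean FPKM was Ctnnb1, Wnt4, Fzd6, Wnt10a, Wnt7b, Lrp6, Wnt3, Axin2, Wnt10b and Lef1. Neighbours whose libraries overlapped there were Wnt7b with Lrp6, Wnt3 with Axin2, and Axin2 with Wnt10b. In reporter negative cells it was Ctnnb1, Wnt10a, Wnt4, Fzd6, Wnt3, Wnt7b, Axin2, Lrp6, Wnt10b and Lef1, with overlap between Wnt10a and Wnt4, Wnt3 and Wnt7b, and Axin2 and Lrp6. Wnt10a and Wnt3 thus stood higher in the order of reporter negative cells, and Axin2 and Lrp6 changed places. The place of Wnt10a above Wnt4 rests on its assembled forms. Its annotated transcript alone was at 47.3 and 35.5 FPKM in reporter negative libraries, against 60.1 and 67.9 FPKM for Wnt4.

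Other genes of the pathway were taken from lists by role. Of 117 genes listed, the 10 included, 77 were tested, 7 were lower in reporter positive cells and none was higher, against 2.71% of all genes tested lower and 2.68% higher. The median change was −0.29 over the 77 genes, against −0.18 over all genes tested. Without the genes of the set, 4 of 68 passed, all lower, with a median change of −0.28. By an unadjusted p under 0.05, 30 of the 77 passed in limma, against 25.9% of all genes tested. With the experiment as a block 16 passed, all lower, against 11.9% of all genes tested in either direction and 7.44% as lower. In both experiments 15 of the 77 were higher in reporter positive cells, against 20.7% of all genes tested, and 50 were lower, against 54.3%.

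Among genes that act before the ligand meets its receptor or at that step, Porcn and Sostdc1 passed. Porcn, the enzyme that attaches the lipid Wnt proteins need for secretion, was at 11.7 and 10.5 FPKM in reporter positive libraries, against 31.4 and 24.1 FPKM in reporter negative libraries (change −1.23, limma adjusted p 0.0392). Sostdc1, a secreted antagonist of Wnt and BMP signals, was at 8.91 and 20.3 FPKM in reporter positive libraries, against 74.9 and 100.1 FPKM in reporter negative libraries (change −2.59, limma adjusted p 0.0392). The groups did not overlap in either gene. Wls, the carrier that brings Wnt proteins to the cell surface, had a change of −0.63 that did not pass (limma adjusted p 0.105). Of the 6 antagonists tested, Sostdc1 passed, and Dkk3, Sfrp1 and Apcdd1 had changes of −1.04, −1.29 and −1.45 that did not pass. With the experiment as a block these 3 also passed (limma adjusted p 0.0290, 0.0204 and 0.0163), so that 4 of the 6 antagonists were lower. In that fit 7.44% of all genes tested passed as lower.

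At the membrane, Lgr4, a receptor for R-spondins, which strengthen Wnt signals, was at 1.82 and 2.39 FPKM in reporter positive libraries, against 5.71 and 7.74 FPKM in reporter negative libraries (change −1.31, limma adjusted p 0.0498). Celsr1, a cadherin of planar cell polarity in skin, was at 5.13 and 7.77 FPKM in reporter positive libraries, against 20.4 and 19.0 FPKM in reporter negative libraries (change −1.50, limma adjusted p 0.0384). In neither gene did the groups overlap. Without any 1 of the 4 libraries Porcn, Lgr4 and Celsr1 no longer passed, and Sostdc1 passed only without reporter positive experiment 2. None of the 11 tested receptors and coreceptors passed in limma, against 6 by an unadjusted p under 0.05 and 2 with the block. Over all genes tested, 25.9% passed by an unadjusted p and 11.9% with the block. The changes of Ryk, Ptk7 and Fzd2, the receptors with the smallest p, were −0.73, −0.74 and −0.84. Among 14 tested nuclear partners none passed in limma, against 4 by an unadjusted p under 0.05 and 0 with the block, and of 15 tested cytoplasmic transducers Axin2 alone did. Some genes were nominally higher in reporter positive libraries. Dvl1, which relays the signal from Frizzled, was at 20.9 and 24.1 FPKM in reporter positive libraries, against 14.7 and 18.2 FPKM in reporter negative libraries (change 0.43, limma adjusted p 0.213). Daam1, which links Dishevelled to the actin skeleton, was at 13.1 and 16.7 FPKM in reporter positive libraries, against 8.66 and 11.7 FPKM in reporter negative libraries (change 0.52, limma adjusted p 0.228). Neither passed, and Dvl2 and Dvl3, of the same family as Dvl1, had changes of −0.67 and −0.55 that did not pass either.

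Of 11 tested target genes, 1 passed, Axin2, with a list median of −0.73. In both experiments 7 of the 11 were lower in reporter positive cells, against 54.3% of all genes tested. Cd44 and Twist1 were the 2 that were higher in both, against 20.7%, with changes of 0.15 and 0.32 that did not pass. Ccnd1 had a change of −0.11 that did not pass either. Ascl2 had a change of −1.01 and Tnfrsf19 one of −2.66, with limma adjusted p of 0.0689 and 0.0725. Myc was at 41.4 and 32.5 FPKM in reporter positive libraries, against 65.3 and 58.0 FPKM in reporter negative libraries, with a limma adjusted p of 0.0855. With the experiment as a block, 5 of the 11 target genes passed, all lower, where 7.44% of all genes tested passed as lower. Of 11 tested ligands only Wnt3 and Wnt10a passed; Wnt16 had a change of −2.23 and Wnt6 one of −1.06 that did not, and Wnt9a was at 2.69 and 2.01 FPKM in reporter positive libraries, against 1.68 and 1.59 FPKM in reporter negative libraries, also without passing.

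**Figure D5:**
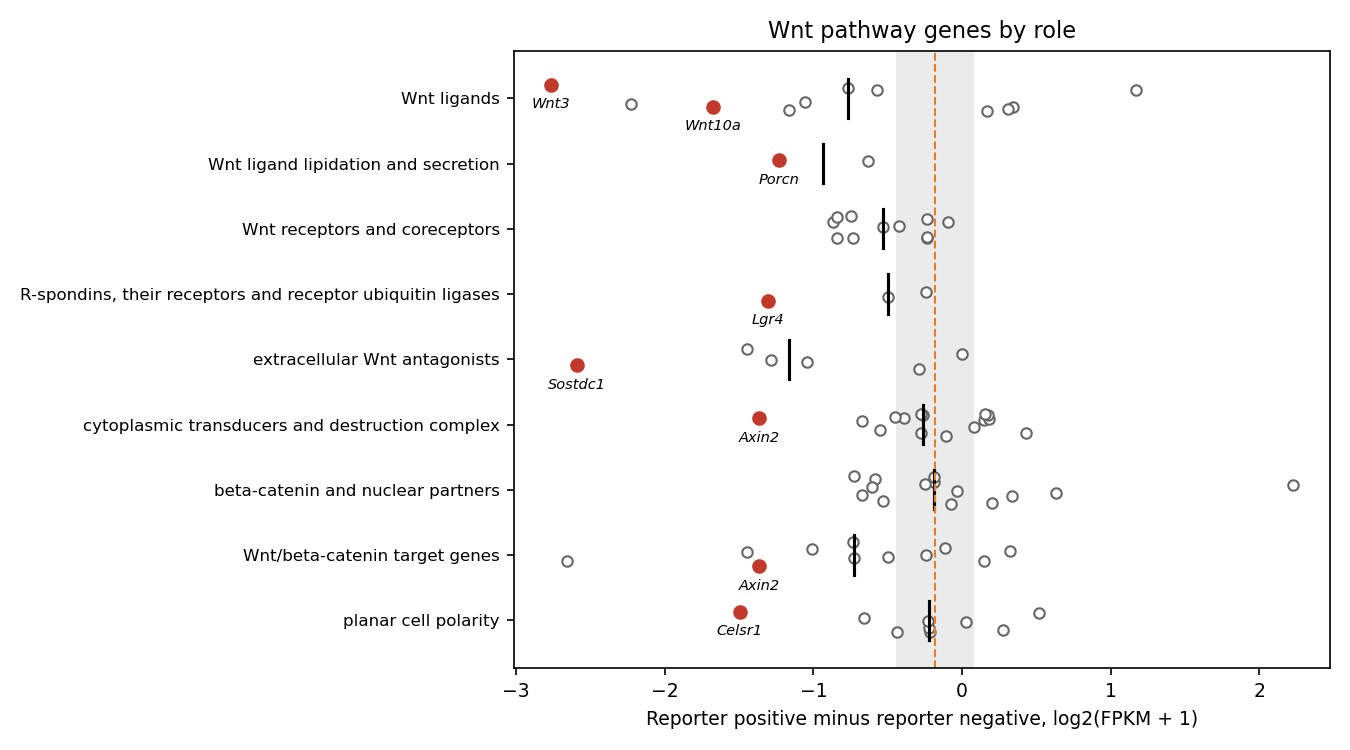
Change of each tested Wnt pathway gene by role on the log2(FPKM + 1) scale, reporter positive minus reporter negative; filled red points passed limma's test, black bars are list medians, the dashed line is the median of all genes tested (−0.18) and the grey band their middle range from −0.44 to 0.07. All filled points lie on the lower side, and Axin2 is drawn in both lists that hold it.

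Some markers of other cell states differed between the fractions. Among markers of differentiating keratinocytes, 6 of 8 tested were higher in reporter positive cells in limma, against 2.68% of all genes tested. Krt10 and Lor did not pass, with changes of −0.17 and 0.10, and Flg was under the filter. The list summed to 4026 and 4370 FPKM in reporter positive libraries, against 1124 and 1092 FPKM in reporter negative libraries. Sprr1a was the largest part of the reporter positive sums, at 2331 and 2209 FPKM, against 296 and 89.2 FPKM in reporter negative libraries. Among markers of dividing cells, 2 of 6 were lower in limma, against 5 by an unadjusted p under 0.05 and 5 with the block. Over all genes tested, 2.71% were lower in limma, 25.9% passed by an unadjusted p in either direction and 7.44% were lower with the block. In all 6 the libraries did not overlap and were lower in reporter positive cells, as in 42.7% of all genes tested. The sums were 242 and 212 FPKM in reporter positive libraries, against 379 and 419 FPKM in reporter negative libraries. Fibroblast markers summed to 40.1 and 56.4 FPKM in reporter positive libraries, against 83.0 and 119 FPKM in reporter negative libraries, with Thy1 the 1 of 8 that passed (lower), against 5 by an unadjusted p under 0.05 and 3 with the block, and no marker at 0. The part of these differences in the Wnt results was not tested. Of 3 tested leukocyte markers none passed in limma, against 1 by an unadjusted p under 0.05. Their list summed to 8.13 and 17.2 FPKM in reporter positive libraries, against 7.61 and 8.10 FPKM in reporter negative libraries, and Cd79a was at 0 in 3 libraries. Endothelial markers summed to 2.64 and 3.10 FPKM in reporter positive libraries, against 4.19 and 11.5 FPKM in reporter negative libraries, with Eng listed at 0 in all. Melanocyte markers summed to 0.252 and 0.902 FPKM in reporter positive libraries, against 1.08 and 3.51 FPKM in reporter negative libraries, with Pmel listed at 0 in all. The genes of the sort were present in every library: Itga6 was at 181 and 205 FPKM in reporter positive libraries, against 331 and 410 FPKM in reporter negative libraries, and Cd44 at 88.0 and 128 FPKM in reporter positive libraries, against 81.5 and 112 FPKM in reporter negative libraries. None of the 6 tested epithelial and sort markers passed in limma, against 4 by an unadjusted p under 0.05 and 4 with the block. These were Epcam, Trp63, Itga6 and Itgb4 in both cases, all lower in reporter positive cells. In these 4 the libraries did not overlap, as in 42.7% of all genes tested on the lower side. Cdh1 and Cd44 had changes of 0.24 and 0.15. Depth, as the ratio of coverage to FPKM, was 3.55 and 3.29 aligned gigabases in reporter positive libraries, against 3.13 and 3.75 gigabases in reporter negative libraries.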

How the data were processed

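The labels' protocols name an Illumina mRNA library kit. Per the submitters' processing notes, the authors used TopHat and Cufflinks with the mm9 build, with no version stated. The deposited files hold an FPKM value, its interval and coverage for each annotated and each assembled transcript, and no read counts, so no count model was used. Assembly was made separately in each library, so reads on an annotated form in one can lie on an assembled form in another.

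From these, FPKM was summed per gene over transcripts of at least 200 exonic bases with Python 3.11.15 and pandas 2.3.3. Of 96734 annotated transcripts, 84047 were named by transcript identifier (GENCODE M21, for names only, since it describes another build) and 5138 by the files' own gene identifier. The remaining 7549, and all assembled ones, went to the gene whose exons held at least 50% of their length, on the same strand or, where they had none, on either. Transcripts with no such gene were left out. Those given a gene held 90.1% and 88.3% of the FPKM of transcripts of this length in reporter positive libraries, against 89.7% and 87.3% in reporter negative libraries. Keratins such as Krt5, Krt14 and Krt1 had no value here and were not analysed.

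The test was limma 3.58.1 in R 4.3.3 (lmFit and eBayes, trend on) of log2(FPKM + 1), two-sided, for genes that reached 1 FPKM in 2 or more libraries, with Benjamini-Hochberg adjustment over all 11973 genes and a threshold of 0.05. The steps were tested on simulated data. Depth was taken as coverage over FPKM; the number of reads is unknown. Listed zeros can be failed estimates: 468 tested genes had at least one. The titles number the experiment in both fractions, which pairs the libraries; the differences between experiments correlated across genes between the fractions (Pearson 0.173 and Spearman 0.379 over 11973 genes, and 0.310 and 0.406 over the 11505 genes above 0 in every library; genes are not independent replicates).

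The genes of the set, the pathway and marker lists and the alternatives were chosen with earlier results of these data known. Named genes were the set, every listed pathway gene that passed, and up to 3 further genes of each list with the smallest p, of which those not named in the text did not pass. Wnt5a, Wnt3a, Ctbp2, Twist1, Ccnd1 and the cell type markers given by name were chosen after their values were seen, as was Cd44 as a target gene.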

Additional observations from a re-analysis of the deposited data

Results flagged for a closer look

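Fzd6 differed in direction between the experiments: reporter positive minus reporter negative was 0.094 in experiment 1 and −0.29 in experiment 2 on the log2(FPKM + 1) scale. With 1 library per fraction and experiment, this difference was not tested. In reporter positive experiment 1, 26.6% of the Fzd6 signal lay on a single-exon assembled form of no strand, and no such form was summed in the other 3 libraries. Without forms of no strand the change of Fzd6 over both experiments was −0.31, and without division by transcript length it was −0.32. Neither passed (limma adjusted p 0.338 and 0.254).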

How the results depend on the processing

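Wnt3 kept its call under 12 of 18 alternatives, Wnt10a under 12 of 18 and Axin2 under 9 of 16, and all kept their direction; for Axin2, Wnt10b and Lrp6 some alternatives gave no value, since they fell under the filter. The 645 genes past the threshold became 1428 with the experiment number as a replicate block, 4 with no filter on low values, 75 from annotated identifiers only, 315 with the most abundant transcript per gene, 1266 without genes listed at 0 and 1002 with robust variance estimation, and ran from 3 to 191 when 1 library was left out. The 3 genes of the set that passed became 0 with no filter and 0 from annotated identifiers, and 0 to 1 with 1 library left out. The count of 7 pathway genes, all lower, became 16 with the replicate block, 4 with a pseudocount of 0.1, 0 with no filter, 2 from annotated identifiers (Wls lower and Dvl3 higher, neither among the 7), 3 with the most abundant transcript and 16 without listed zeros, and ran from 0 to 3 with 1 library left out; without reporter negative experiment 1, Wnt3a and Ctbp2, both listed at 0 in reporter negative experiment 2, were among them as higher. The replicate block changed no other call in the set than that of Wnt4. Of the genes that never passed, Fzd6 turned to 0.14 under median-of-ratios scaling, 0.0038 under quantile normalization and 3.10 from annotated identifiers, and Ctnnb1 to 0.17 under median-of-ratios scaling. With 1 library left out, Fzd6 ran from −0.22 to 0.027, Lrp6 from −0.51 to 0.046 and Ctnnb1 from −0.19 to 0.044, and the positive values came without reporter negative experiment 2. The cause was not tested. Leaving out assembled forms of no strand (606 genes) and leaving out the division by transcript length (593 genes) were added after seeing the data. With 1 library left in a group, that library is assumed to vary like the others. Counting error was wide at low levels, reaching 20.7% of the value for Wnt3 and 26.1% for Wnt10b in reporter positive libraries. For Lef1, which was not tested, it was 150% there.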
